A study of Mus musculus with 16 samples.

Results

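Transcripts of DNA methyltransferases and Polycomb genes were followed in 16 arrays of mouse embryonic stem (ES) cells and liver. The members were 8 genes: Dnmt1, Dnmt3a, Dnmt3b, Uhrf1, Ezh2, Eed, Mtf2 and Yy1. A probe set, the group of oligonucleotides that reports 1 transcript on an Affymetrix U74Av2 array, was taken as a member where the array annotation gives it 1 of these symbols and no other. This found 13 of 12488 probe sets, covering 7 of 8252 annotated genes. No such probe set was found for Dnmt3b, which is not analysed here.

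DNA methyltransferases add methyl groups to cytosine in CpG dinucleotides. DNMT3A and DNMT3B place new marks, DNMT1 copies marks to the daughter strand after replication, and UHRF1 recognises hemimethylated DNA and brings DNMT1 to it. Polycomb repressive complex 2 (PRC2) methylates lysine 27 of histone H3 at silent developmental genes: EZH2 is its catalytic subunit, EED binds the finished mark and stimulates the enzyme, and MTF2 (PCL2) is an accessory subunit that binds unmethylated CpG-rich DNA. YY1 is a zinc finger factor related to a fly Polycomb protein that activates or represses its targets. In ES cells these factors are abundant, and their loss impairs differentiation.

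RNA was measured in 6 groups, 1 array per sample. The ES groups had 3 arrays each: ESVJ, a +/+ line, and its derivative with 1 mutated Abca1 copy (Abca1 +/-), as well as E14, a +/+ line, and a line with 1 mutated Cdk4 copy (Cdk4 +/-), for which the labels give E14 as control. ESVJ and Abca1 +/- cells grew on irradiated embryonic fibroblast feeders and were then depleted of feeders and kept on gelatin before RNA isolation with Trizol and RNeasy. E14 and Cdk4 +/- cells grew without feeders and RNA was isolated with RNeasy alone. Liver came from 2 +/+ mice and 2 that the labels call Abca1 +/-, all on a background that mixes 129/SvJ with C57BL6/J; the labels give no age, sex or feeding state. Each ES genotype is a single line, and whether its arrays come from separate cultures is not stated, so p-values measure only the spread between these samples.

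The unit is the MAS5 signal, a linear intensity, scaled here to a common trimmed mean of 500; the median signal per array was then 126 to 170. Differences are between mean values of log2(signal + 32), a scale that makes changes of weak probe sets look smaller, and "passed" means an adjusted p under 0.05 over all probe sets tested with limma. Where groups are said to overlap or not, the share over all probe sets was not counted, so this is a description. Arrays of 1 ES group correlated with r from 0.970 to 0.990 across probe sets, and the 2 pairs of livers with r of 0.937 and 0.968. ES marker genes and hepatocyte marker genes followed the labels: the summed signal of 12 ES markers was 37620 to 71160 in ES arrays and 728.6 to 1076 in livers, and that of 10 hepatocyte markers 434.5 to 936.4 and 234500 to 309900. Cdk4 was at 3678 ± 209 in Cdk4 +/- cells and 5716 ± 189 in E14 (SD, n = 3 per group, adjusted p = 0.00436) by its stronger probe set, while Abca1 did not pass in Abca1 +/- ES cells (adjusted p = 0.9997) or in livers labelled Abca1 +/-. There its probe sets went opposite ways, 627 against 314 in +/+ livers by the stronger (adjusted p = 0.191) and 101 against 217 by the weaker (adjusted p = 0.366). As neither passed, those livers are named by their label throughout.

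Start-site windows show the CpG content in front of some of the members. The sequences are from RefSeq (GRCm38.p6), run 5′ to 3′ on the strand of the gene, end at the start site or at the first annotated base of the gene, and have each CpG, the substrate of the methyltransferases, in capitals. They cover an internal start of Dnmt3a (chr12:3891494-3891743, plus strand), and the first listed starts of Mtf2 (chr5:108065424-108065659, plus strand), Eed (chr7:89980977-89981226, minus strand) and Uhrf1 (chr17:56303087-56303336, plus strand).
Dnmt3a: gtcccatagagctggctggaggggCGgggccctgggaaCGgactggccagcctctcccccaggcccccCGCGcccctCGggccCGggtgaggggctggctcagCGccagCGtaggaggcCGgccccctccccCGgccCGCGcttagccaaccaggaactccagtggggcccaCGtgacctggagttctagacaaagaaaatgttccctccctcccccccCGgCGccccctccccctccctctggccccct
Mtf2: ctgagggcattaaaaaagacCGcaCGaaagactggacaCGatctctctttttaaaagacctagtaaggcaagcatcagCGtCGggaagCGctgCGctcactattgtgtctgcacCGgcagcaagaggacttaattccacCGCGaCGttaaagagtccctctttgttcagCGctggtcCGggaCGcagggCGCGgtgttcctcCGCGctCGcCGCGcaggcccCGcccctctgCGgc
Eed: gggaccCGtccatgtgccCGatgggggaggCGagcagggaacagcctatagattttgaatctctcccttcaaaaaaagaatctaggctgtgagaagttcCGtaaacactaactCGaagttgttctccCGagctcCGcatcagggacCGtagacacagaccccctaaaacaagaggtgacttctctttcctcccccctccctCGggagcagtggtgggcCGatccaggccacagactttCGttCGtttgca
Uhrf1: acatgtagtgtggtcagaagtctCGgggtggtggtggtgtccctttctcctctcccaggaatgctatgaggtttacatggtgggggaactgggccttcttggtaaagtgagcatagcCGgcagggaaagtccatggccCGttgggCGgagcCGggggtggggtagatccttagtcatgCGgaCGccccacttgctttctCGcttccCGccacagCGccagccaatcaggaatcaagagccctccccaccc

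The printed windows hold 15 CpGs for Dnmt3a, 23 for Mtf2, 12 for Eed and 10 for Uhrf1, and the median of all 32851 windows of 250 bases in the table is 6. Dnmt3a has 3 listed starts. The printed internal start lies 90185 bases into the gene (chr12:3801559-3914443). The others lie 5421 and 5601 bases into it and hold 38 and 40 CpGs in 250 bases, more than 98.1% and 98.7% of all windows. A shorter isoform, Dnmt3a2, is known to be made from an internal start and to be the main form in ES cells; which isoform the array reports was not tested. The 250 bases before the first listed start of Yy1 hold 36 CpGs, and those of Ezh2 23. Not all windows of the members are rich in CpG. That of the second listed start of Mtf2 holds 2, and those of Dnmt1 hold 2, 7 and 26. The window of Dnmt3b holds 21 and that of the second listed start of Uhrf1 30. The letters TTCCCGC, a core of E2F sites, were found on either strand in 1 of the 14 windows listed for the 8 members, that of Uhrf1 printed above, and in 3.82% of all windows. The letters AANATGGC, a core of YY1 sites, were found in none of the 14 and in 3.91% of all windows.

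Dnmt3a had the largest difference among the members between the ES lines. Its signal was 1191, 1230 and 1451 in ESVJ and 1497, 1032 and 1325 in Abca1 +/- cells, against 314, 285 and 122 in E14 and 215, 282 and 248 in Cdk4 +/- cells. The 6 arrays of feeder-grown lines all lay at 1032 or more and the 6 of feeder-free lines all at 314 or less. E14 was 5.14-fold lower than ESVJ (log2 difference -2.36, SE 0.24, 95% interval -2.88 to -1.84, adjusted p = 2.33e-06). The line, the feeders and the RNA isolation change together between these groups and cannot be told apart. The size held with each of the 6 arrays left out (-2.58 to -1.99), and the lowest array, E14 replicate 3, did not set it. Within each pair of lines no difference was found: Dnmt3a was at -0.02 (95% interval -0.54 to 0.50) in Abca1 +/- against ESVJ cells and at 0.12 (-0.40 to 0.64) in Cdk4 +/- against E14 cells. The second probe set annotated to Dnmt3a stayed at 0.60 to 4.86 in every ES array, and so reports nothing on the difference.

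**Figure D1:**
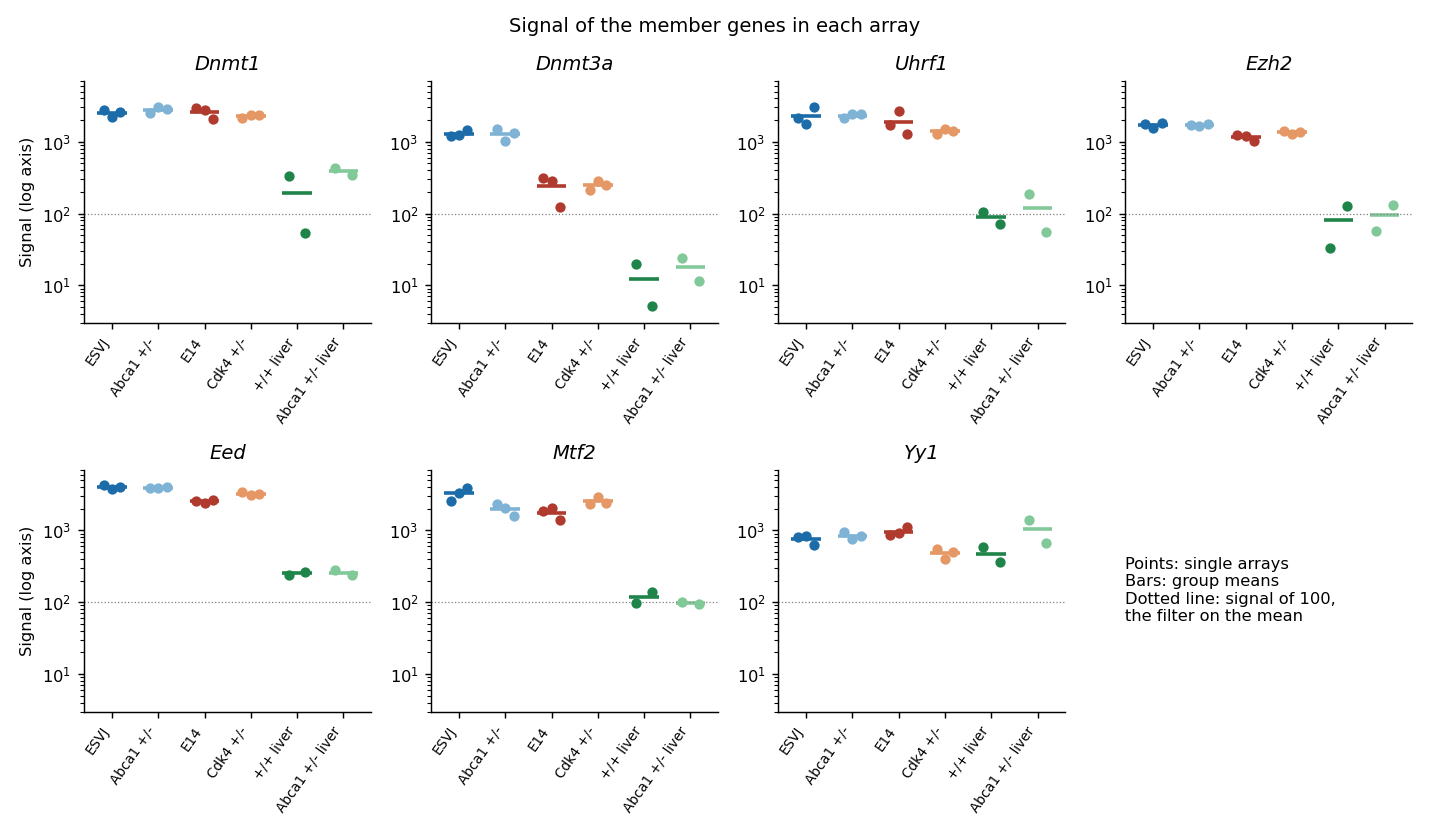
Signal of the stronger probe set of each member gene (log axis) in the 16 arrays, by group, with points for arrays, bars for group means and a dotted line at a signal of 100. Dnmt3a splits the 4 ES groups, with feeder-grown arrays at 1032 to 1497 and feeder-free arrays at 122 to 314, and Yy1 is the member whose liver signals reach the ES range.

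Of the maintenance genes, no difference between E14 and ESVJ was found for Dnmt1 by its stronger probe set, and Uhrf1 was lower in E14 without passing. Dnmt1 was at 2552 ± 296 in ESVJ and 2582 ± 460 in E14 (SD, n = 3 per group), and the ranges overlapped (log2 difference 0.01, 95% interval -0.29 to 0.31). Its second probe set was weak, from 7.03 to 125 over the ES arrays, and was not tested. That probe set had means of 87.9 in ESVJ, 96.3 in Abca1 +/-, 38.5 in E14 and 22.5 in Cdk4 +/- cells. Its ranges in ESVJ and E14 overlapped. Uhrf1 varied more between arrays of a group: it was at 2117, 1761 and 3038 in ESVJ and at 1696, 2647 and 1280 in E14. The difference was -0.32 (SE 0.22, adjusted p = 0.257), and it passed without E14 replicate 2, the highest of that group (-0.60, adjusted p = 0.0293). Abca1 +/- cells had 2107, 2425 and 2401, and Cdk4 +/- cells 1296, 1504 and 1426, with no overlap between these groups. They differ in line, mutated gene, feeders and RNA isolation together, and the difference between them was not tested.

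The PRC2 genes Ezh2, Eed and Mtf2 were lower in E14 than in ESVJ by smaller steps. Eed was at 4314, 3721 and 4039 in ESVJ and at 2539, 2434 and 2622 in E14, 1.58-fold lower (log2 -0.66, SE 0.10, adjusted p = 1.05e-04). Ezh2 was at 1755, 1538 and 1837 in ESVJ and at 1225, 1209 and 1024 in E14, 1.47-fold lower (log2 -0.56, SE 0.12, adjusted p = 0.00140). The groups did not overlap for either gene. The Ezh2 call was lost when all 16 arrays were fitted together (adjusted p = 0.115).

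Mtf2 was read by 3 probe sets of usable signal, and all 3 were lower in E14. By the strongest, ESVJ arrays had 2568, 3326 and 3925 and E14 arrays 1863, 2059 and 1388, a log2 difference of -0.87 (SE 0.18, adjusted p = 0.00154). The others, which share a source sequence in the annotation and so are no independent readings, were at -0.78 each (SE 0.12 and 0.17, adjusted p = 9.79e-05 and 0.00170). The names of both mark a departure from the standard probe design. The remaining Mtf2 probe set stayed between 0.93 and 7.996 in ES arrays. Yy1 went the other way without passing: it was at 816, 843 and 631 in ESVJ and at 875, 920 and 1099 in E14 (log2 0.33, SE 0.16, adjusted p = 0.103), and its second probe set was weak at 31.4 to 144.

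Counted over members, 4 of 7 genes (6 of 9 probe sets above the signal filter) fell in E14 against ESVJ, none rose and 3 genes did not pass. Of all 7349 probe sets tested, 42.6% passed in this comparison, 22.8% as lower and 19.8% as higher. The median difference was -0.66 over the 9 member probe sets and -0.09 over all probe sets. The members were picked with results of these arrays known, so the count describes them and does not single them out.

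**Figure D2:**
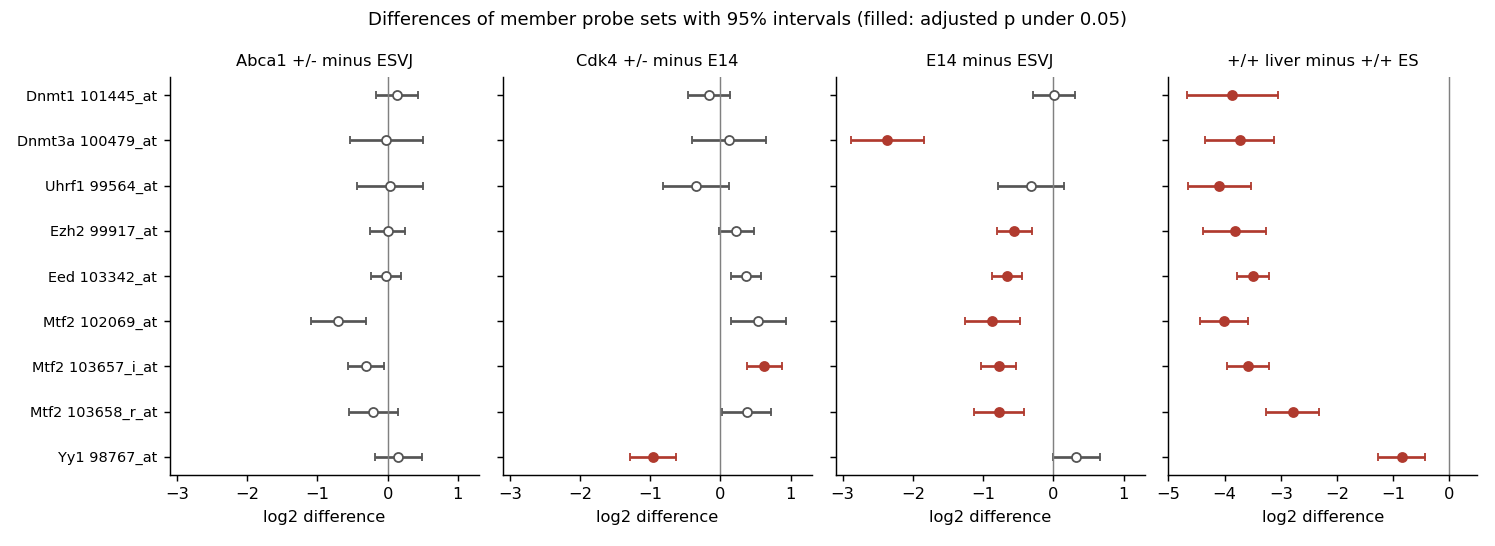
Log2 differences (x axis) of the 9 member probe sets that passed the signal filter, with 95% intervals, in 4 comparisons; filled red points have an adjusted p under 0.05. Dnmt3a at -2.36 stands farthest from 0 in E14 minus ESVJ, Yy1 and 1 Mtf2 probe set are filled in Cdk4 +/- minus E14, and no point is filled in Abca1 +/- minus ESVJ. In +/+ liver minus +/+ ES, Dnmt3a, Ezh2, Uhrf1 and the weakest Mtf2 probe set entered through their ES signal alone. Their fill there is no support.

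Other genes of the same pathways were read from lists of known components. Of 16 measured partners and readers of DNA methylation, 10 fell in E14 against ESVJ, 4 rose and 2 did not pass, with a list median of -0.40. Beside this count and those of the lists below, 22.8% of all probe sets passed as lower and 19.8% as higher. Hells, the helicase that opens chromatin for methylation, fell from 2423 ± 450 to 792 ± 66.8 (SD, n = 3 per group, log2 -1.56, SE 0.17, adjusted p = 3.68e-06). Zfp57, which protects methylation at imprinted loci, fell by 0.81 and the glycosylase gene Mbd4 by 0.76 on the log2 scale. Gadd45b, a stress gene tied to DNA demethylation, rose from 228 ± 29.7 to 1015 ± 332 (log2 1.97, SE 0.23, adjusted p = 6.94e-06). Its probe set is of a kind marked as able to hybridise with related sequences.

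Among 9 measured PRC2 partners 3 fell and 1 rose. The list median was -0.14, near the -0.09 over all probe sets, so the falls named here do not describe the list. Jarid2, which guides PRC2 to chromatin, was at -0.60, Epop, a PRC2 modulator of ES cells, at -0.68 and Aebp2, a DNA-binding accessory subunit, at -0.51, while the histone-binding subunit gene Rbbp7 rose by 0.52. The core subunit gene Suz12 was at 0.19 (adjusted p = 0.389). Of 14 genes of PRC1, the complex that ubiquitinates histone H2A, and related Polycomb genes, 4 fell and 4 rose. Of these, the polyhomeotic gene Phc1 fell by 0.89 and its relative Phc2 rose by 1.86. Phc2 was at 120 ± 37.6 in ESVJ and 510 ± 37.1 in E14. Sfmbt2, an imprinted Polycomb gene needed in the trophoblast, rose by 2.41 (SE 0.19, adjusted p = 1.30e-07), from 451 ± 18.8 to 2557 ± 385 (SD, n = 3 per group), by a probe set of the same marked kind as that of Gadd45b. The deacetylase gene Hdac1 fell by 0.88. Of 7 measured genes of H3K9 silencing 4 fell and 1 rose, with the demethylase gene Kdm3a at -0.96 and the H3K9 methyltransferase gene Setdb1 at -0.71. Of 11 Trithorax genes, which oppose Polycomb silencing, 3 fell and 4 rose, among them Kmt2e at 1.10 and the chromatin remodeller gene Smarca4 at 0.60. The list medians were 0.001 for PRC1 and related genes, -0.41 for H3K9 genes and 0.085 for Trithorax genes.

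Markers of ES identity and of proliferation moved with these groups. Of 12 ES markers 11 fell and 1 rose in E14 against ESVJ (median -0.76), and of 22 S phase and proliferation genes 14 fell and none rose (median -0.45). The summed proliferation signal was 49270 to 53930 in ESVJ and 33350 to 39710 in E14. Of 6 tested of 14 fibroblast markers 2 rose and 1 fell in E14. Sparc rose from 953 to 2297 and Col1a1 from 388 to 937, while Col1a2 fell from 1334 to 867. The summed signal of the 14 was 4699 to 4849 in ESVJ and 6255 to 6580 in E14. As single genes went both ways, this sum is no measure of feeder cells, and their part was not tested. Krt19, an epithelial keratin, was at 54.5 ± 25.7 in ESVJ and 2562 ± 175 in E14. The part of these in the member differences was not tested. In bulk samples, fewer cells of a type and less RNA per cell cannot be told apart.

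**Figure D3:**
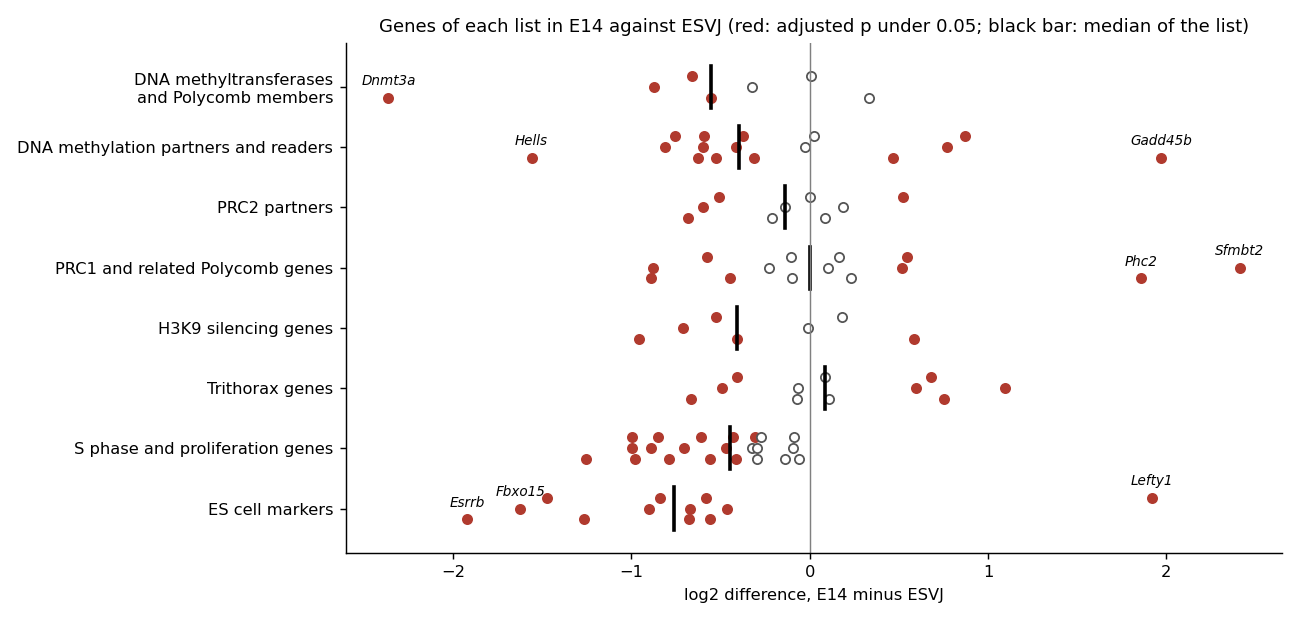
Log2 difference of E14 minus ESVJ (x axis) for the measured genes of 8 lists, 1 point per gene, red where the adjusted p was under 0.05, with a black bar at the median of each list. Dnmt3a at -2.36 and Hells at -1.56 lie at the low end and Sfmbt2 at 2.41 and Gadd45b at 1.97, read by probe sets marked as able to hybridise with related sequences, at the high end; the ES marker and proliferation lists have medians of -0.76 and -0.45.

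The comparison of Cdk4 +/- cells with E14 sets 1 line with a mutated copy of this G1 kinase gene against its control line. The mutation and other differences between these lines cannot be told apart. Yy1 fell and Mtf2 rose by 1 probe set. Yy1 was at 552, 396 and 498 in Cdk4 +/- cells against 875, 920 and 1099 in E14, with no overlap. The fall was 1.95-fold (log2 -0.96, SE 0.16, 95% interval -1.30 to -0.63, adjusted p = 0.00436). It still passed when any of the 6 arrays was left out (adjusted p = 0.0102 to 0.0213) and did not pass when all 16 arrays were fitted together (adjusted p = 0.0787). The second Yy1 probe set, at 31.4 to 75.6 in Cdk4 +/- cells and 42.4 to 144 in E14, was too weak for the test.

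Mtf2 rose in Cdk4 +/- cells by its second strongest probe set, from 1626, 1492 and 1424 in E14 to 2220, 2180 and 2677 (1.54-fold, log2 0.63, SE 0.12, adjusted p = 0.0104). This call was lost without Cdk4 +/- replicate 3, the highest array (log2 0.53, adjusted p = 0.0644), and in the fit of all 16 arrays (adjusted p = 0.150). The probe set of this call has a name that marks a departure from the standard probe design. It leaves the test where such probe sets are left out. The strongest probe set was at 2347, 2940 and 2404 against 1863, 2059 and 1388 (log2 0.54, SE 0.18, adjusted p = 0.111), and the weakest of the 3 was at 0.37 (adjusted p = 0.213). The 2 groups did not overlap by any of the 3 probe sets, of which 2 share a source sequence. How often other probe sets did not overlap was not counted, so this is a description.

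Eed lay just outside the threshold in Cdk4 +/- cells. It was at 3389, 3161 and 3229 against 2539, 2434 and 2622 in E14, without overlap (log2 0.36, SE 0.10, adjusted p = 0.0532). It passed under quantile normalization (adjusted p = 0.0270), with a signal filter of 200 (adjusted p = 0.0439) and without probe sets whose names mark a departure from the standard probe design (adjusted p = 0.0472). Ezh2 was at 0.23 (95% interval -0.02 to 0.47), Dnmt1 at -0.16 (-0.46 to 0.14) and Uhrf1 at -0.34 (-0.82 to 0.13), and none of these passed.

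Counted over members, 1 of 9 probe sets rose and 1 fell in Cdk4 +/- cells, where 4.91% of all 7349 probe sets passed, 2.59% as higher and 2.33% as lower. The comparison with E14 and the one of E14 with ESVJ share the E14 arrays, so their values are only set side by side: Eed was at -0.66 in E14 against ESVJ and 0.36 in Cdk4 +/- against E14, Ezh2 at -0.56 and 0.23, and Mtf2 at -0.87 and 0.54 by its strongest probe set. In group means, Eed ran from ESVJ (4025) and Abca1 +/- (3943), whose arrays overlap, to Cdk4 +/- (3260) and E14 (2532), which overlap with no other group. Ezh2 had the same order, at 1710, 1707, 1350 and 1153. Dnmt3a ran 1291 in ESVJ, 1284 in Abca1 +/-, 248 in Cdk4 +/- and 240 in E14, and only the step between the second and the third exceeded the spread.

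Among the other lists in Cdk4 +/- cells, 1 of 16 genes of DNA methylation rose and 1 fell. They were Gadd45a, a growth arrest gene, from 1345 ± 38.2 to 2766 ± 247 (SD, n = 3 per group, log2 1.02, adjusted p = 3.96e-04), and Mbd3, a subunit gene of the NuRD complex, at -0.52 (adjusted p = 0.0278). Of 9 PRC2 partners Aebp2 rose (0.61, adjusted p = 0.0495) and of 14 PRC1 and related genes Hdac1 rose, from 1096 ± 39.2 to 1913 ± 79.7 (log2 0.79, adjusted p = 0.00440). Of 7 H3K9 genes 2 rose, Kdm3a at 0.59 and Cbx5, the gene of the heterochromatin protein HP1 alpha, at 0.68, and of 11 Trithorax genes 1 fell, Smarca4 at -0.51. The list medians were 0.01 for DNA methylation, 0.16 for PRC2, 0.18 for PRC1, 0.13 for H3K9 and -0.01 for Trithorax, against 0.02 over all probe sets. Of 22 proliferation genes Fen1 and Orc1 fell and 20 did not pass, and the summed proliferation signal was 35990 to 40440 in Cdk4 +/- cells, which overlaps E14. Of 12 ES markers Klf4 and Nanog rose. The part of these in the member differences was not tested.

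**Figure D4:**
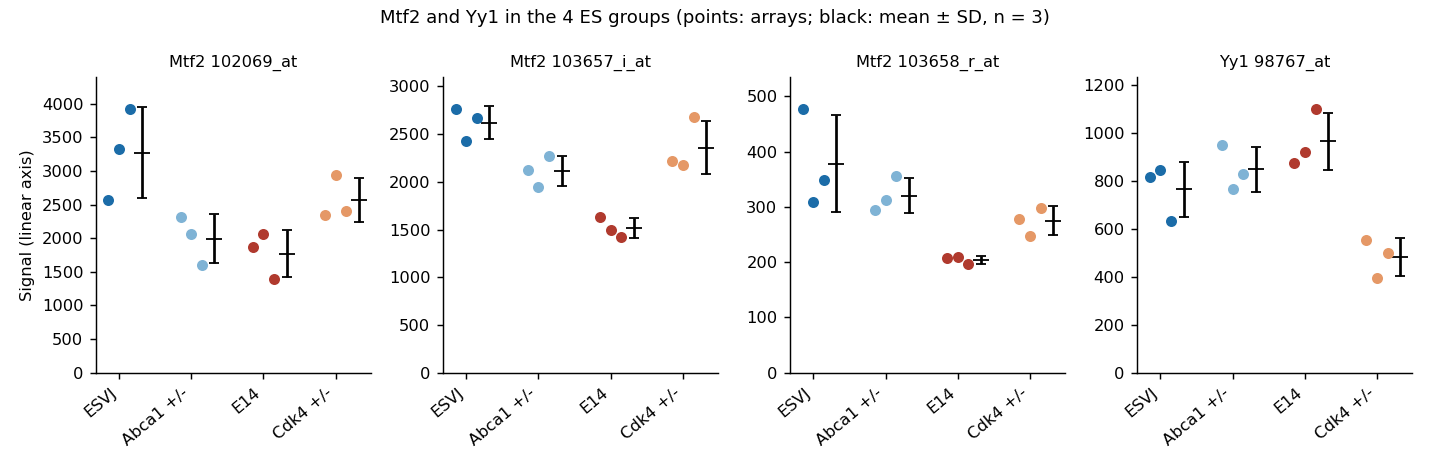
Signal (linear axis from 0) of 3 Mtf2 probe sets and 1 Yy1 probe set in the 4 ES groups, with a point per array and black bars for the mean ± SD of 3 arrays. Yy1 is lowest in the 3 Cdk4 +/- arrays (396 to 552), and by each Mtf2 probe set the E14 arrays lie below the Cdk4 +/- and ESVJ arrays.

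The comparison of Abca1 +/- ES cells with ESVJ sets 1 line with a mutated copy of a cholesterol exporter gene against its parental line. The mutation and other differences between these lines cannot be told apart. None of the 9 member probe sets passed, where 0.0272% of all 7349 probe sets did (2 probe sets), and at unadjusted p under 0.05 limma counted 241. Mtf2 had the largest member difference. By its strongest probe set it was at 2314, 2067 and 1602 in Abca1 +/- cells against 2568, 3326 and 3925 in ESVJ, with no overlap (log2 -0.70, SE 0.18, 95% interval -1.09 to -0.31, adjusted p = 0.974). The other 2 were at -0.31 (SE 0.12) and -0.20 (SE 0.17), each with adjusted p = 0.9997. Ezh2 and Eed were at 0.00 (95% interval -0.25 to 0.25) and -0.03 (-0.24 to 0.19). Dnmt1 was at 0.14 (-0.16 to 0.44), Uhrf1 at 0.04 (-0.43 to 0.51) and Yy1 at 0.15 (-0.18 to 0.48). No gene of the 5 lists of chromatin genes passed either, and the list medians lay between 0.03 and 0.11.

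The difference of the mutation effects was tested as an interaction, the Abca1 effect minus the Cdk4 effect. Each effect is the difference of a single mutant line from its control. The pairs of lines also differ in feeders and RNA isolation. It passed for 3 of 9 member probe sets, where 0.626% of all probe sets passed: Mtf2 by its strongest probe set (-1.24, SE 0.26, adjusted p = 0.0464) and by its second strongest (-0.93, SE 0.17, adjusted p = 0.0234), and Yy1 (1.11, SE 0.22, adjusted p = 0.0375). Mtf2 thus had opposite signs in the mutant lines, -0.70 and 0.54 by the first and -0.31 and 0.63 by the second probe set. The name of the second Mtf2 probe set marks a departure from the standard probe design. These calls lie near the threshold. With 1 of the 12 arrays left out at a time they held in 2, 6 and 3 cases respectively, with adjusted p up to 0.106, 0.0738 and 0.0838, and the sizes ranged from -1.40 to -1.08, from -0.98 to -0.84 and from 0.99 to 1.21. None held in the fit of all 16 arrays (adjusted p = 0.161, 0.301 and 0.312). For Eed the interaction was -0.39 (SE 0.14, adjusted p = 0.212).

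In liver the members were far lower than in ES cells, except Yy1. The +/+ livers were compared with the mean of ESVJ and E14. All 7 genes passed as lower, where 75.8% of all 7802 probe sets passed, 48.9% as lower. Dnmt3a, Ezh2 and Uhrf1, with mean signals of 12.4, 80.0 and 88.3 in +/+ livers, entered through their ES signal alone and so had to differ, as did the weakest Mtf2 probe set at 12.8. The count is therefore no support, and below, values of these 3 genes are given with no test. The median over all probe sets was -0.43, and -0.13 after quantile normalization, which also moves the share of higher calls from 35.5% to 45.6%; member differences are to be read against that shift.

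Eed had signals of 243 and 265 in the +/+ livers, 11.3-fold below ES cells (log2 -3.50, SE 0.13, adjusted p = 6.50e-11). Mtf2 was at 98.6 and 138 by its strongest probe set (log2 -4.01, SE 0.20, adjusted p = 8.48e-10). Uhrf1 was at 106 and 71.2, a log2 difference of -4.10. The livers were closer to each other for these genes than for Dnmt1 and Ezh2. Dnmt1 was at 332 and 54.2, and its difference of -3.86 became -2.82 without +/+ liver replicate 2 and -4.90 without replicate 1. Ezh2 was at 32.8 and 127, and its difference of -3.82 became -3.17 without replicate 1 and -4.47 without replicate 2. Dnmt3a was at 19.7 and 5.23, and as both values are below the pseudocount, its log2 difference of -3.73 was -5.56 with a pseudocount of 1 and -2.59 with 100.

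Yy1 was at 584 and 360 in the +/+ livers against 631 to 1099 in ESVJ and E14 (log2 -0.85, SE 0.19, adjusted p = 0.00142). After quantile normalization it was at -0.39 and did not pass (adjusted p = 0.0850). Proliferation genes were also lower in liver: 21 of 22 tested passed as lower with a median of -3.90, and the cell cycle antigen gene Mki67 was at -4.25. Some of them, such as Mki67, Fen1 and Orc1, lay below the signal filter in +/+ livers, while others lay above it. Those below it entered through their ES signal alone and so had to differ. The count of proliferation genes is therefore no support. The part of proliferation in the member differences was not tested. Among the chromatin lists, PRC2 partners had a median of -2.03 with 8 of 9 lower, PRC1 and related genes -1.90 with 12 of 14 lower, DNA methylation genes -2.73 with 14 of 17 lower, H3K9 genes -2.63 with 7 of 7 lower and Trithorax genes -2.24 with 10 of 11 lower. The largest falls among the genes named for these 5 lists were those of Epop (-4.94), Hells (-4.90) and Sfmbt2 (-4.86). Next came Arid1a, a chromatin remodeller gene (-4.63), and Phc1 (-4.59). Epop, Hells, Sfmbt2 and Phc1, with mean signals of 56.4, 16.8, 6.28 and 90.8 in +/+ livers, lay below the signal filter there. They entered through their ES signal alone and so had to differ, while Arid1a was at 125. The counts of these lists are therefore no support either.

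Livers labelled Abca1 +/- were compared with +/+ livers, 2 against 2 arrays. None of the 6 member probe sets above the filter passed, where 0.014% of all 7160 did (1 probe set), and at unadjusted p under 0.05 limma counted 1321. Yy1 was at 1403 and 665 against 584 and 360 (log2 1.03, SE 0.42, 95% interval 0.08 to 1.97, adjusted p = 0.242). Dnmt1 was at 433 and 347 against 332 and 54.2 (log2 1.24, SE 0.58, 95% interval -0.06 to 2.55, adjusted p = 0.285). Eed was at 278 and 236 against 243 and 265 (log2 0.01, 95% interval -0.75 to 0.78). With the lone array of a group assumed to vary like the other group, Dnmt1 passed without +/+ liver replicate 1 (2.28, adjusted p = 0.0383) and Yy1 without replicate 2 of the livers labelled Abca1 +/- (1.55, adjusted p = 0.00986). Dnmt3a, at 5.23 to 24.1, and Ezh2, at 32.8 to 132, stayed below the filter in liver.

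Genes with the most similar profile over the 12 ES arrays were sought for the members that passed in an ES comparison, among 5577 genes. The arrays fall into 6 feeder-grown and 6 feeder-free ones, so r is also given within each set. Closest to Yy1 was Gclc, the catalytic subunit gene of glutathione synthesis, with r = 0.923 over all and 0.718 and 0.950 within the sets. Closest to Ezh2 was Dppa2, a gene of pluripotent cells (r = 0.983, and 0.950 and 0.913), and closest to Eed was Srpk2, a splicing kinase gene (0.976, and 0.921 and 0.952). For Mtf2 the first was Ccl1, a chemokine gene (0.862, and 0.986 and 0.648), followed by Lsm8, an RNA-binding protein gene (0.860, and 0.860 and 0.851). For Dnmt3a it was Rpl39l, a ribosomal protein gene (0.987), whose r was 0.047 within the feeder-grown and 0.897 within the feeder-free set. The points share the arrays and their scaling, and these values are descriptions.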

How the data were processed

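Per the labels, the authors hybridised total RNA to mouse U74Av2 arrays and processed them with MAS5.0 at its defaults; the deposited intensity is the MAS5 signal of each probe set, with a 2% trimmed mean of 1501 or 1502 in all 16 arrays, and no detection calls were used here. Signals were rescaled to a trimmed mean of 500, 32 was added and log2 taken. Within each fit, only probe sets whose mean signal reached 100 entered the test, by limma 3.58.1 in R 4.3.3 (empirical Bayes with an intensity trend, Benjamini-Hochberg adjustment over all probe sets tested), leaving out 66 control probe sets. The 12 ES arrays were fitted together (8 residual degrees of freedom), the 8 arrays of +/+ liver, ESVJ and E14 together (5), and the 4 livers alone (2). The number of arrays limits the precision: the median SE of a log2 difference was 0.17 in ES comparisons and 0.38 in liver. Where 1 value per gene was needed, the probe set with the highest mean was taken; of the probe sets 10855 carry 1 gene symbol, 396 several and 1237 none. Of the 8 members 7 have a probe set, and all 8 have listed starts. Named are all members, up to 4 genes per list and comparison with the smallest p among those that passed, the genes of most similar profile, and, chosen after their values were seen, Suz12, with the mutated genes Cdk4 and Abca1. The members and lists were chosen with earlier results of these data known. Alternatives were other scalings, pseudocounts, filters, fits and leaving out each array.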

Additional observations from a re-analysis of the deposited data

Results flagged for a closer look

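The differences of the mutant lines from their controls were unlike for 2 member genes by the test of the interaction (Abca1 effect minus Cdk4 effect, on the log2 scale). Mtf2 differed by -1.24 by its strongest probe set and by -0.93 by its second strongest, and was lower in Abca1 +/- than in ESVJ arrays and higher in Cdk4 +/- than in E14 arrays by either. Yy1 differed by 1.11, with a difference of 0.15 in the Abca1 comparison and -0.96 in the Cdk4 comparison. The name of the second strongest Mtf2 probe set marks a departure from the standard probe design. No Mtf2 probe set passed in the Abca1 comparison. With 1 of the 12 arrays left out at a time, the interaction calls held in 2, 6 and 3 cases respectively. None held in the fit of all 16 arrays.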

How the results depend on the processing

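No paired analysis was possible because the labels give no replicate numbers. Passed member probe sets in Cdk4 +/- against E14 (2) became 0 with all 16 arrays in one fit and 1 to 2 with an array left out. For the interaction (3) they became 1 on the deposited scale or without a filter, 0 without an intensity trend or with all 16 arrays, and 0 to 2 with an array left out. In liver (0) they became 2 with all 16 arrays, and 0 to 1 with an array left out. Over all probe sets, the 2 calls of Abca1 +/- against ESVJ became 1 without a filter, with a filter of 200, in a fit of the compared groups or with any array left out, and 0 with all 16 arrays. The 361 of Cdk4 +/- against E14 became 196 without a filter, 227 without a trend, 174 in a fit of the compared groups, 35 with all 16 arrays, and 68 to 521 with an array left out. The 46 of the interaction became 23 on the deposited scale, 16 without a filter, 19 without a trend, 1 with all 16 arrays, and 5 to 93 with an array left out. The 1 liver call became 2 on the deposited scale, 0 after quantile normalization or without a trend, 3 without a filter, 1970 with all 16 arrays, and 9 to 1653 with an array left out. Both counts of E14 against ESVJ and of liver against ES cells stayed within 1.5 times. The sign turned for values near 0: under quantile normalization Ezh2 in Abca1 +/- cells was at -0.019 and Eed in livers at -0.164, and with an array left out Ezh2 ranged from -0.072 to 0.054, Dnmt3a from -0.134 to 0.128, Eed from -0.082 to 0.024 and Uhrf1 from -0.135 to 0.252 in Abca1 +/- cells, Dnmt3a from -0.248 to 0.338 in Cdk4 +/- cells and from -0.356 to 0.23 in the interaction, Dnmt1 from -0.09 to 0.16 in E14 against ESVJ, and Eed from -0.089 to 0.117 in livers. The cause was not tested.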
